A study of Mus musculus with 9 samples.

Results

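Gene expression was compared between the chordoneural hinge (CNH) and the tailbud mesoderm (TBM), neighbouring progenitor regions at the tip of the mouse tail at E10.5. The comparison used 6 arrays, 3 for each region, of the 9 in the series. The 3 arrays of the presomitic mesoderm (PSM), the tissue in front of the tailbud that segments into somites, entered the same statistical fit and are given beside them. All embryos were wild type, and RNA came from about 50 pooled pieces of a region. Biotin-labelled cRNA was read on Illumina mouse Ref6v2 bead arrays. The study describes 2 biological replicates and 1 technical replicate, but which array was technical is not given, nor which samples came from each of the strains CD1 and C57Bl/6J. The p-values therefore measure only the spread between these arrays. Of the 45281 probes on the array, 11963 were detected on all 3 arrays of CNH or of TBM and were tested, which covered 7557 named genes. A probe was taken as detected when its detection p, the share of negative control probes at least as bright, was under 0.01.

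The tail of the embryo grows from progenitors at its tip. The CNH is the place where the neural tube and the notochord end and run into each other, and it is known to hold long-lived axial progenitors that give rise to neural tube and mesoderm. Cells that leave it as mesoderm pass through an epithelial to mesenchymal transition into the TBM and from there move forward into the PSM. FGF and WNT signals keep the progenitors of the tip in place, the notochord secretes Sonic hedgehog and antagonists of BMP, and BMP signals are known for their role on the ventral side of the tailbud.

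The arrays of replicate 3 stood apart from the others in every region. Their median signal was 65.6 to 67.1 in CNH and TBM, where it was 77.5 to 80.1 for replicates 1 and 2. The study's own test took account of batch effects. The fit here held the replicate number as a block, since it was the only label that could stand for a batch. Between 30.8% and 32.7% of the probes were detected on each of the 6 arrays. Of the defining markers, Shh and Chrd (notochord), Sox2 (neural), Fgf8, Wnt3a and Cdx2 (tailbud), Tbx6 (posterior mesoderm), Cdh5 and Pecam1 (endothelium) and Hbb-bh1 and Hba-x (red blood cells) were detected and tested. Csf1r (macrophages) was tested too, but was detected on 3 CNH arrays and 1 TBM array. Msgn1, also of posterior mesoderm, had no probe on the array. Foxa2 and Epcam, which mark gut and epithelia and of which Foxa2 also marks the notochord, were detected on 0 of the 6 arrays. Noto, a homeobox gene of the node and notochord, was at 7.29 and 7.30 in CNH replicates 1 and 2, at 4.72 in CNH replicate 3 and at 4.26 to 4.57 in TBM. It was detected on 2 CNH arrays and on 0 TBM arrays, which left it just outside the filter and untested. In pooled tissue, fewer cells of a type and less RNA per cell cannot be told apart.

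The difference between CNH and TBM was small, and more probes were called higher than lower in CNH. A probe was called when limma's adjusted p was under 0.05 (Benjamini-Hochberg over all tested probes) and the fold change at least 1.5. By this rule 139 of 11963 probes were called (1.16%), 104 higher (0.869%) and 35 lower (0.293%) in CNH. With the brightest tested probe standing for each gene, 77 of 7557 genes were higher (1.02%) and 28 were lower (0.371%). A stricter rule, an adjusted p under 0.01 and a fold of at least 2, left 23 probes higher (0.192%) and 1 lower (0.00836%). The called genes reached a log2 fold change of 2.00 above and -1.46 below TBM. The median absolute log2 difference over all tested probes was 0.12, with a median standard error of 0.13. From the same fit, which shares the CNH and TBM arrays, CNH and PSM differed by 1238 called probes (10.3%) and TBM and PSM by 1026 (8.58%), and there the median absolute differences were 0.18 and 0.16.

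The called probes differed in the same direction within each replicate number, but many of the calls were lost when a single CNH or TBM array was left out. All 104 higher and all 35 lower probes had the same sign in each replicate number, which 2022 (16.9%) and 2373 (19.8%) of all tested probes also had, so that below the call threshold the lower side was not the smaller. The 3 CNH arrays lay above the 3 TBM arrays without overlap for 70 of the 104 (308 of all tested probes, 2.57%), and below them for 18 of the 35 (281 of all, 2.35%). Without CNH replicate 1 or CNH replicate 2, 28 probes each were called higher and 4 or 2 lower. Leaving out TBM replicate 1 gave 23 higher and 0 lower, TBM replicate 2 gave 19 and 0, and TBM replicate 3 gave 40 and 11. Leaving out CNH replicate 3 gave 96 higher and 46 lower. Each of these fits had fewer arrays, and in each all 139 called probes kept their sign. Without the replicate block, limma called 0 probes either way, and 227 had an unadjusted p under 0.05. Calls that held in every fit without a CNH or TBM array came from 17 probes, all higher in CNH. These were probes of 11 named genes (Cdkn1a, Chrd, Cpn1, En2, Hap1, Igfbp5, Nrn1, Sox9, Tmprss2 and, named here after their values were seen, Pgam2 and Scg5) and 3 probes without a gene name. With the values as the authors normalized them, 13 probes were called higher and 2 lower, and 7 of the 17 were still called. At any fold, 80 probes had an adjusted p under 0.05 with those values, where 153 had it in the main fit. Of the 50 named genes with a call that are described below, 9 kept it with those values (Cdkn1a, Cpn1, Fgf8, Hap1, Igfbp5, Samd3, Sox9 and Tmprss2 higher, Sct lower). Averaging replicates 1 and 2, as if they were the technical pair, left 35 probes called higher and 3 lower. Over the tested probes, the difference of CNH and TBM in replicate 1 correlated with that in replicate 2 at r = 0.52 and with that in replicate 3 at 0.26, and replicates 2 and 3 at 0.27, across probes that are not independent.

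**Figure D1:**
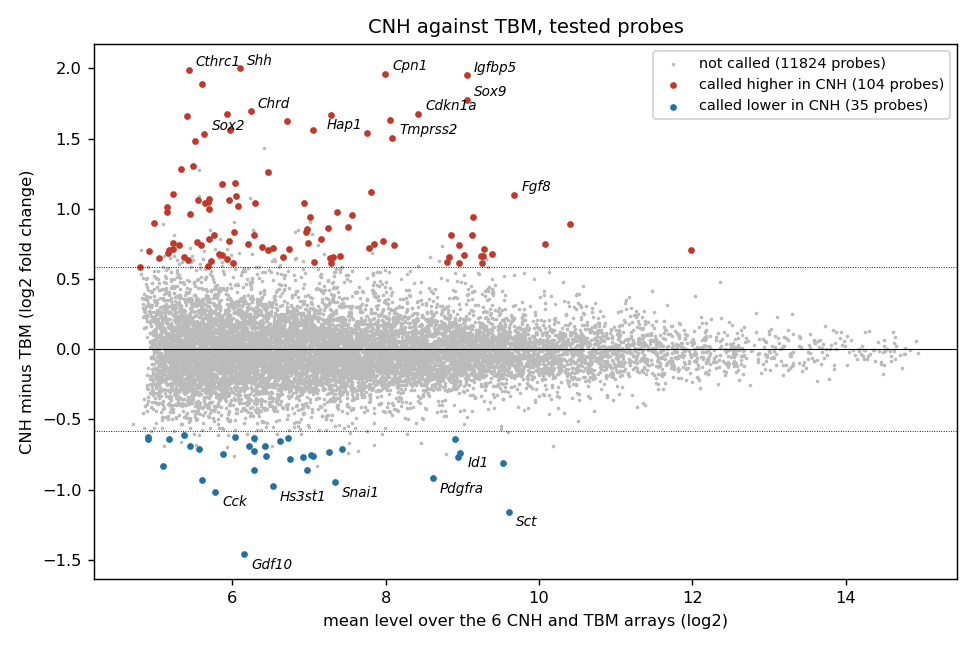
Log2 fold change of CNH over TBM (vertical axis) against the mean log2 level over the 6 CNH and TBM arrays (horizontal axis) for each of the 11963 tested probes. Red points are the 104 probes called higher in CNH, blue points the 35 called lower, grey points the rest, and dotted lines mark the 1.5-fold limit. Called probes are found over most of the range of levels, and the highest points reach 2.00 where the lowest reaches -1.46.

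Of 28 genes of the notochord and node, 15 were tested. Of these, 6 were called higher (Shh, Cthrc1, Sox9, Chrd, Mnx1 and Sox5) and 1 lower (Car3), and the median log2 fold change was 0.41, where it was -0.02 over all tested genes, of which 1.02% were called higher and 0.371% lower. Shh and Cthrc1 passed the detection filter through CNH alone, where they are high, and Car3 through TBM alone. Of the 12 members detected on all 6 arrays, 4 were called higher and 0 lower, with a median of 0.38. By replicate number the median of the group was 0.48, 0.49 and 0.48. The list was drawn up with the study's results known and some of its members stand among the genes that the study chose on these arrays, so its direction is not independent evidence.

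Shh, the ligand of the hedgehog pathway, was at log2 levels of 7.63, 7.80 and 5.85 in CNH replicates 1, 2 and 3 and at 5.32, 5.55 and 4.41 in TBM. The groups did not overlap, and the third array of each region was the lowest. The log2 fold change of the 3 CNH arrays over the 3 TBM arrays was 2.00 ± 0.27 (adjusted p = 0.00959). Shh was detected on 2 of the 3 TBM arrays. Here and below, ± is limma's standard error, with the residual spread pooled over the arrays of all regions, PSM included. The fit counted the technical replicate as a separate array, so the ± and the p do not measure spread between biological replicates alone. Chrd, which encodes the secreted BMP antagonist chordin, was at 7.34, 7.35 and 6.56 in CNH and at 5.48, 5.56 and 5.13 in TBM. Again the regions did not overlap, and the difference was 1.70 ± 0.15 (adjusted p = 0.000604). Cthrc1, which encodes a secreted glycoprotein with a collagen repeat, was at 6.99, 7.08 and 5.21 in CNH and at 4.34 to 4.54 in TBM, where it was detected on 0 of 3 arrays. Its level in CNH was at least 2.85-fold higher than the detection floor in TBM (adjusted p = 0.0113), a bound that sets the CNH mean against the dimmest detected signal of each TBM array. Mnx1, a homeobox gene of the notochord and motor neurons, was 0.84 ± 0.12 higher in CNH on the log2 scale (adjusted p = 0.0123), and Sox5, which acts in the notochord sheath and in cartilage, was 0.84 ± 0.16 higher (adjusted p = 0.0421), with a second probe at 0.53 that was not called (adjusted p = 0.098). The calls of Shh, Cthrc1 and Mnx1 were lost without CNH replicate 1 or 2 or TBM replicate 1 or 2 (for Shh also without TBM replicate 3), with adjusted p up to 0.0691, 0.0928 and 0.114. That of Sox5 was lost without each of the 6 CNH and TBM arrays in turn and without PSM replicate 1 or 2 (adjusted p up to 0.245), and that of Chrd in none of these fits (adjusted p up to 0.00703). With the authors' normalized values Sox9 alone of the 6 higher genes kept its call, and the log2 fold changes of Shh, Chrd, Cthrc1, Mnx1 and Sox5 were 0.52, 0.42, 0.40, 0.19 and 0.27. Chrd missed only the 1.5-fold limit there (adjusted p = 0.0192), while the adjusted p of Shh, Cthrc1, Mnx1 and Sox5 was 0.0692 to 0.0876.

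Of 9 tested genes of the hedgehog pathway only Shh was called, and the median log2 fold change was 0.03. The share called higher over all tested genes was 1.02%. Smo, the signal transducer, differed by -0.06 ± 0.13 (adjusted p = 0.899). Gli3 and Gli2, transcription factors that carry the signal to target genes, differed by -0.08 ± 0.11 (adjusted p = 0.822) and 0.35 ± 0.12 (adjusted p = 0.223).

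**Figure D2:**
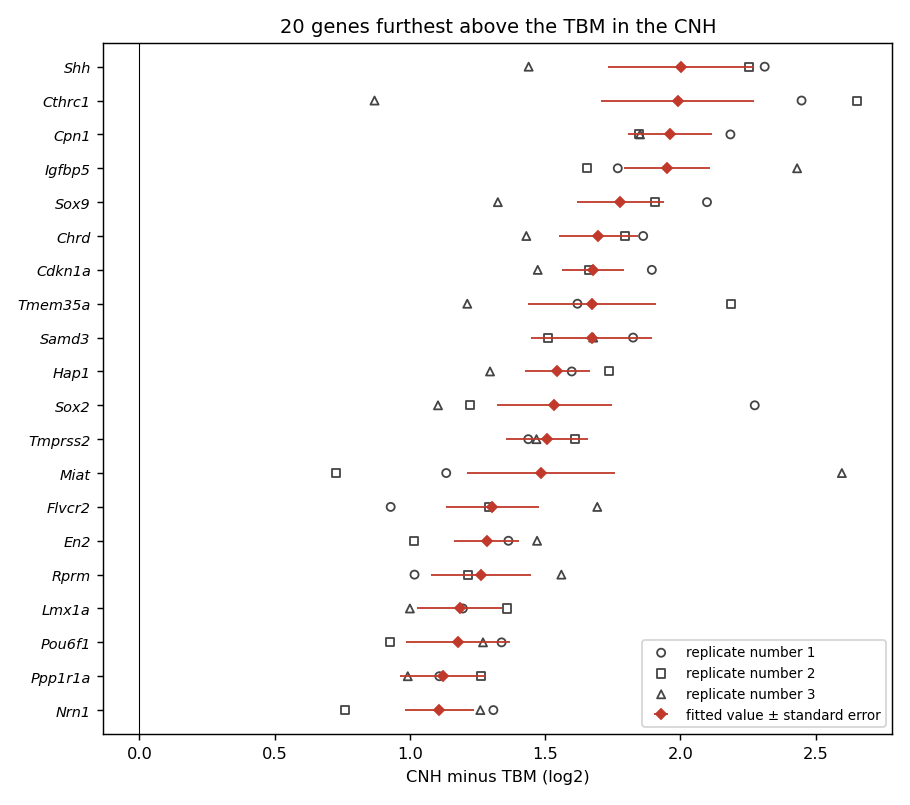
CNH minus TBM on the log2 scale (horizontal axis) for the 20 genes with the largest log2 fold change among those called higher in CNH. Open circles, squares and triangles are the differences within replicates 1, 2 and 3, and red diamonds with bars are the fitted value ± its standard error. Every difference lies above 0, from Shh with a fitted 2.00 to Nrn1 with 1.11, and the numbers differ among themselves most for Cthrc1 and Miat.

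Some transcription factors of the neural tube were called higher in CNH. Among 8 tested genes of the neural tube list, 2 were called higher (Sox2 and Lmx1a) and 0 lower, with a median of 0.31, where 1.02% of all tested genes were called higher. Sox2 passed the detection filter through CNH alone, and of the 7 members detected on all 6 arrays 1 was called higher, with a median of 0.20. Lhx5, a LIM homeobox gene of the neural tube outside that list, was called lower and is described with the lower genes. En2 and Pou6f1, also outside the list, were among the 20 largest higher genes. Sox2, the factor of neural and neuromesodermal progenitors, was at 6.79, 6.43 and 5.98 in CNH and at 4.52, 5.21 and 4.87 in TBM. Every CNH array was above every TBM array, and the log2 fold change was 1.53 ± 0.21 (adjusted p = 0.0109), with 1 of 3 TBM arrays detecting the gene. Lmx1a, a LIM homeobox gene of the roof plate, was at 6.32, 6.50 and 7.06 in CNH and at 5.12, 5.14 and 6.06 in TBM, a difference of 1.18 ± 0.16 (adjusted p = 0.00954). En2, a homologue of the Drosophila gene engrailed known from the midbrain and hindbrain, stood at 5.95, 5.97 and 5.99 in CNH and at 4.58, 4.95 and 4.52 in TBM. The CNH values were nearly equal, and the log2 fold change was 1.28 ± 0.12 (adjusted p = 0.00106), again with detection on 1 of 3 TBM arrays. Pou6f1, a POU domain factor, was 1.18 ± 0.19 higher (adjusted p = 0.0196), with the third array of both regions above the others. The call of En2 held whichever array was left out (adjusted p up to 0.0168), but was lost without background correction (log2 fold change 0.57). Sox2 lost it without CNH replicate 2 or TBM replicate 1 or 3 (adjusted p up to 0.0522), Lmx1a without CNH replicate 1 or 2 or each TBM array (up to 0.0736), and Pou6f1 without CNH replicate 1 or 3 or each TBM array (up to 0.13). With the authors' normalized values all 4 lost their calls, at log2 fold changes of 0.22 (En2), 0.29 (Sox2), 0.25 (Lmx1a) and 0.24 (Pou6f1). En2 and Lmx1a missed only the 1.5-fold limit there (adjusted p = 0.0387 and 0.0317), and Sox2 and Pou6f1 missed both limits (0.0573 and 0.193). Within the list Msx1, a target of BMP signals in the dorsal neural tube and in mesenchyme, was on the other side, with -1.0 ± 0.30 and an adjusted p of 0.172.

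A further set of called genes was graded over the regions, with CNH above TBM and TBM above PSM. Cpn1, the catalytic subunit of the plasma enzyme carboxypeptidase N, was at 8.89, 8.66 and 9.36 in CNH and at 6.71, 6.81 and 7.51 in TBM, and was detected on 0 PSM arrays. Between CNH and TBM the log2 fold change was 1.96 ± 0.16 (adjusted p = 0.000412). A second probe of Cpn1 was called in the same direction, at 1.63. Cdkn1a, which encodes the cell cycle inhibitor p21, was at 9.38, 9.26 and 9.14 in CNH, at 7.49, 7.59 and 7.67 in TBM and at a mean of 5.65 in PSM. The difference between CNH and TBM was 1.68 ± 0.11 and had the smallest adjusted p of all called genes (0.000289). Both other probes of Cdkn1a were called higher too, with smaller differences of 1.02 and 1.04. Hap1, the huntingtin-associated protein, was at 8.55, 8.44 and 8.58 in CNH and at 6.95, 6.70 and 7.28 in TBM, with detection on 1 PSM array and a difference between CNH and TBM of 1.54 ± 0.12 (adjusted p = 0.000412). Tmprss2, a transmembrane serine protease of epithelia, was at 8.77, 8.76 and 8.99 in CNH and at 7.33, 7.14 and 7.53 in TBM, with a mean of 5.36 in PSM and a difference of 1.51 ± 0.15 (adjusted p = 0.00178). The arrays of CNH and TBM did not overlap for any of these 4 genes, and all 4 calls held whichever of the 9 arrays was left out.

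Fgf8, the FGF ligand of the tailbud, was the only called member of 21 tested axial progenitor genes, whose median was 0.05. The share called higher over all tested genes was 1.02%. Fgf8 was at 9.86, 9.97 and 10.84 in CNH and at 8.78, 8.80 and 9.78 in TBM, with a mean of 6.44 in PSM. The CNH arrays were all above the TBM arrays, and the log2 fold change was 1.10 ± 0.13 (adjusted p = 0.00608). The call was lost without TBM replicate 2 (adjusted p = 0.0691). Fgf17, the other tailbud ligand, was at 11.22 to 11.56 in CNH and at 11.01 to 11.26 in TBM, which differed by 0.24 ± 0.20 (adjusted p = 0.669). Wnt3a, a WNT ligand of the progenitors, differed by -0.16 ± 0.22 (adjusted p = 0.825), and Sp5, a target of WNT signals, by 0.32 ± 0.13 (adjusted p = 0.348). Cdx2, the caudal homeobox factor, differed by 0.39 ± 0.24 (adjusted p = 0.53), although its 3 CNH arrays were above the 3 TBM arrays.

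Some of the higher genes had their lowest level in TBM, with PSM at or above the level of CNH. Igfbp5, a binding protein of insulin-like growth factors, was at 9.70, 9.83 and 10.57 in CNH and at 7.93, 8.17 and 8.14 in TBM, and its mean in PSM was 10.11. The log2 fold change of CNH over TBM was 1.95 ± 0.16 (adjusted p = 0.000429), its other probes were called too, at 1.63 and 1.56, and CNH differed from PSM by -0.08 (adjusted p = 0.793). Sox9, a factor of the notochord, neural tube and cartilage, was at 9.34, 9.26 and 11.24 in CNH and at 7.24, 7.35 and 9.92 in TBM. The third TBM array lay above the first 2 CNH arrays, so the regions overlapped, while within each number CNH was higher and the difference was 1.78 ± 0.16 (adjusted p = 0.000775). A second, dimmer probe of Sox9 differed by 0.45 and was not called (adjusted p = 0.193). For Sox9 the mean of PSM was 9.93, which differed from CNH by 0.02 (adjusted p = 0.95). Ppp1r1a, an inhibitor of protein phosphatase 1, was at 8.31, 8.35 and 8.45 in CNH, at 7.21, 7.08 and 7.46 in TBM and at a mean of 10.39 in PSM, so that CNH lay between the others. Its difference between CNH and TBM was 1.12 ± 0.16 (adjusted p = 0.0113), and this call was lost without CNH replicate 1 or 2 or TBM replicate 1 or 2 (adjusted p up to 0.0928) and with the authors' normalized values (0.49), whereas Igfbp5 and Sox9 kept theirs without each array.

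Over the 77 higher genes, the mean of PSM lay below both regions for 50, between them for 19 and above both for 8. Over all tested genes it lay below both for 36.3%, between them for 20.7% and above both for 43.1%. For the 28 lower genes the counts were 11, 8 and 9.

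**Figure D3:**
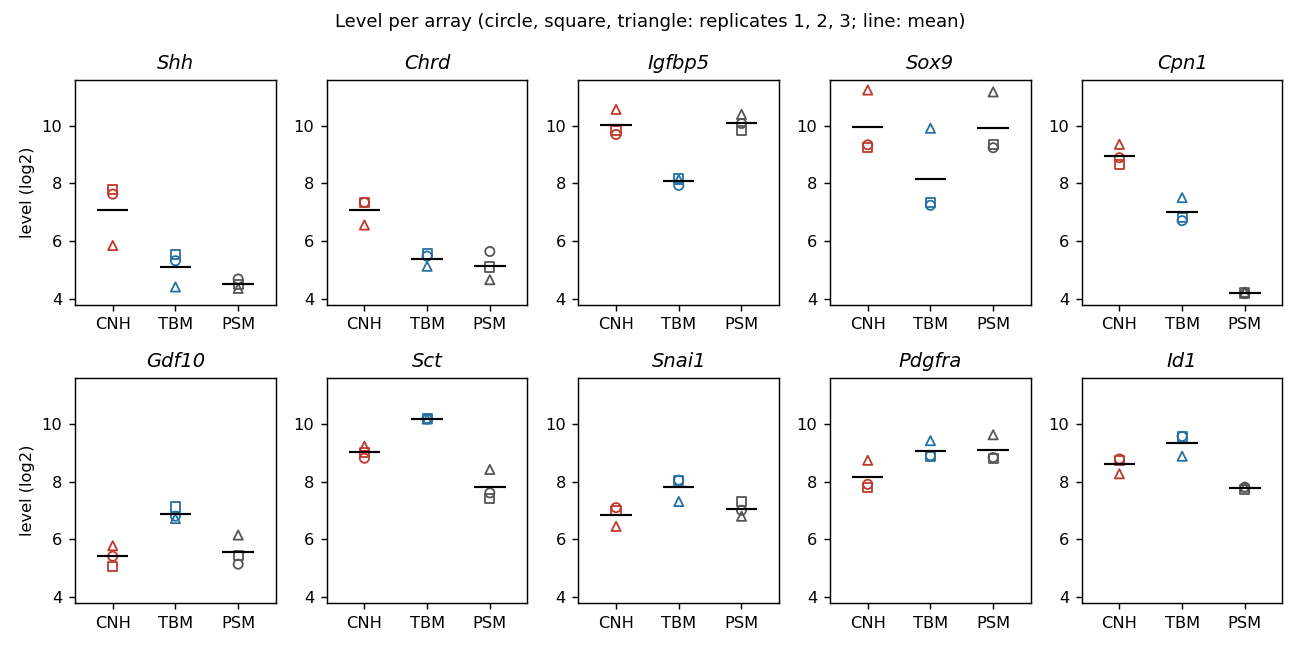
Log2 levels (vertical axis) of 10 named genes on each array of CNH, TBM and PSM, with circles, squares and triangles for replicates 1, 2 and 3 and a line at the mean. Shh and Chrd are high in CNH alone, Cpn1 steps down from CNH to TBM and was not detected in PSM, Igfbp5 and Sox9 are lowest in TBM, and Gdf10, Sct, Snai1 and Id1 are highest in TBM, while Pdgfra is lowest in CNH.

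Several higher genes were near the detection limit in TBM. Of the 77, 6 were detected on 0 TBM arrays and 20 on fewer than 3. Miat, a long non-coding RNA, was at 6.03, 5.48 and 7.25 in CNH and at 4.65 to 4.90 in TBM without detection there, which gave a level at least 2.53-fold higher in CNH (adjusted p = 0.035). Its CNH arrays were widely spread, and the call was lost without 7 of the 9 arrays left out in turn (CNH replicate 1 or 3, each TBM array, PSM replicate 2 or 3), with adjusted p up to 0.104. Nrn1, which encodes the neurite growth protein neuritin, was at 6.11, 5.44 and 5.80 in CNH and at 4.54 to 4.80 in TBM, also without detection in TBM, and was at least 1.83-fold higher (adjusted p = 0.00399). That call held without each array, but was lost without background correction (log2 fold change 0.48). With the authors' normalized values Miat, Nrn1 and Flvcr2 were at 0.28, 0.18 and 0.23 and not called. Flvcr2, a transporter of the FLVCR family, was at 5.73, 5.90 and 6.79 in CNH and at 4.80, 4.61 and 5.09 in TBM, where 1 array detected it. It differed by 1.30 ± 0.17 (adjusted p = 0.00954), without overlap, and lost the call without TBM replicate 2 or 3 (adjusted p up to 0.076). The remaining genes not detected in TBM, named after their values were seen, were Ffar4, Sim2 and Mdga2, with lower bounds of 1.65-fold, 1.27-fold and 1.13-fold.

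The other genes among the 20 largest were Tmem35a, Samd3 and Rprm. Samd3, a gene with a SAM domain, was at 8.15, 7.99 and 8.21 in CNH and at 6.33, 6.48 and 6.53 in TBM. The values within each region were close together, the difference was 1.67 ± 0.22 (adjusted p = 0.00954), and another probe of Samd3, detected on 1 TBM array, was also called higher but with a difference of 0.69. Tmem35a, a chaperone of nicotinic acetylcholine receptors, was at 7.05, 7.19 and 6.05 in CNH and at 5.43, 5.0 and 4.83 in TBM, without overlap, and differed by 1.67 ± 0.24 (adjusted p = 0.0113). Rprm, a target of p53 that arrests the cell cycle, was at 6.67, 6.48 and 8.15 in CNH and at 5.65, 5.26 and 6.59 in TBM. Here the third TBM array reached above the second CNH array, and the difference was 1.26 ± 0.18 (adjusted p = 0.0116). Samd3 lost its call without CNH replicate 1 or 2 or TBM replicate 1 or 3 (adjusted p up to 0.0613), Tmem35a without CNH replicate 1 or 2 or each TBM array (up to 0.0928), and Rprm without each TBM array (up to 0.104). With the authors' normalized values Tmem35a and Rprm also lost theirs, at 0.38 and 0.35. Outside the 20 largest and the gene lists, 50 further named genes were called higher, with log2 fold changes of 0.59 to 1.10.

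Smaller differences called within the gene lists were those of Epha2, Ramp2, Timp3 and Ccnd2. Epha2, a receptor of ephrins, was at 6.15, 6.27 and 5.84 in CNH and at 5.31, 5.35 and 5.24 in TBM, a difference of 0.79 ± 0.12 (adjusted p = 0.0148). Ccnd2, which encodes cyclin D2, differed by 0.62 ± 0.12 (adjusted p = 0.0387), with other probes at 0.43 and 0.53 that were not called, and Timp3, an inhibitor of metalloproteinases, by 0.67 ± 0.13 (adjusted p = 0.043). Ramp2, the partner of the adrenomedullin receptor in endothelium, was 0.67 ± 0.14 higher (adjusted p = 0.0481). Epha2 lost its call without CNH replicate 1 or 2 or each TBM array (adjusted p up to 0.114). Ccnd2 lost it in the same fits and without PSM replicate 1 or 2 (up to 0.257), Timp3 without each CNH or TBM array or PSM replicate 2 (up to 0.294), and Ramp2 without each CNH or TBM array or PSM replicate 1 or 2 (up to 0.253). The authors' normalized values gave no call for any of the 4, with 0.16 to 0.43, although Ccnd2 missed only the 1.5-fold limit there (adjusted p = 0.036).

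Lists of markers of other cell types were read beside these genes. For gut endoderm, 2 of 12 tested members were called higher, Shh and Tmprss2, and 0 lower, with a median of 0.30 (1.02% of all tested genes were called higher). Shh passed the filter through CNH alone, and of the 10 members detected on all 6 arrays 1 was called. The summed level of that list was 11.76 to 12.04 on the CNH arrays and 11.25 to 11.42 on the TBM arrays. The defining markers Foxa2 and Epcam were not detected in CNH, TBM or PSM by the probe read for each. A silent probe and an absent transcript cannot be told apart there. Foxa3, a factor of gut endoderm named here after its values were seen, was at 6.39, 6.25 and 8.73 in CNH and at 5.30, 5.0 and 6.79 in TBM, and was not called (1.43 ± 0.34, adjusted p = 0.0851). For endothelium, 1 of 18 members was called higher, Ramp2, with a median of 0.24 and summed levels of 13.37 to 13.49 in CNH and 13.30 to 13.37 in TBM. Of 12 erythroid genes 0 were called and the median was 0.05. Of 4 macrophage genes 0 were called, and the median was 0.18. Of these, 2 passed the filter through CNH alone, and the median of the 2 detected on all 6 arrays was 0.096. Surface ectoderm had 1 of 13 members called, Tfap2b, lower in CNH, which passed the filter through TBM alone, and 0 of its 11 members detected on all 6 arrays were called. Over all tested genes 0.371% were called lower. The summed levels of the surface ectoderm list were 11.91 to 12.28 in CNH and 11.74 to 11.95 in TBM. Trp63, the defining marker of ectoderm, went the other way. It was at 5.23, 4.90 and 4.35 in CNH, at 5.96, 5.58 and 4.68 in TBM and at a mean of 7.93 in PSM. Detection on 1 CNH array and 2 TBM arrays left it untested. The part of these cells in the differences was not tested.

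The promoters of the called genes were searched for short sequence motifs, which are shown as a description of the genes called in each direction. RefSeq promoter sequences of the mouse build GRCm38.p6 (300 bases, 250 before and 50 after the start) were matched for 55 of the 77 higher and 22 of the 28 lower genes. A gene was counted when any of its promoter sequences held the motif. The T-box motif AGGTGTGA, on either strand, was in 5 of the 55 (9.09%) and in 0 of the 22. It was in 1% of the 6180 tested genes with a promoter sequence, against 1.48% of all 27025 genes with one. The genes with it were Cdkn1a, Samd3 and Tmem35a and, named after they were found, Slc30a3 and Wfdc2. The forkhead motif TGTTTAC was in 3.64% of the higher, 4.55% of the lower and 2.98% of the tested genes (4.05% of all). The TCF/LEF motif ATCAAAG was in 3.64%, 4.55% and 3.04% (4.29% of all), the SOX motif ACAATGG in 5.45%, 0% and 2.23% (4.15% of all), and the Gli motif GACCACCCA in 0%, 0% and 0.34% (0.289% of all). A match is a description of letters and was not tested.

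The 250 bases before the start are shown, in the direction of transcription, for both higher genes among the 20 largest with the T-box motif there, for Cpn1, which holds 2 of the motifs, and for Cck, the lower gene described next, with the motifs in capitals. In Samd3 the T-box motif lies 15 bases before the start on the reverse strand and in Tmem35a 67 bases before it. In Cpn1 the TCF/LEF and forkhead motifs lie 99 and 65 bases before the start. The capitals in Cck are the forkhead motif on the reverse strand.
Samd3 (chr10:26229457-26229706, plus strand): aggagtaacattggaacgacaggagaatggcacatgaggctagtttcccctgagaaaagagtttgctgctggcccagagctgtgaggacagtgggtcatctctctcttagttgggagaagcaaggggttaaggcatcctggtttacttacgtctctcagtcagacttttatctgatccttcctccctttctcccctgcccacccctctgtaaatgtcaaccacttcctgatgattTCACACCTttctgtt
Tmem35a (chrX:134294975-134295224, plus strand): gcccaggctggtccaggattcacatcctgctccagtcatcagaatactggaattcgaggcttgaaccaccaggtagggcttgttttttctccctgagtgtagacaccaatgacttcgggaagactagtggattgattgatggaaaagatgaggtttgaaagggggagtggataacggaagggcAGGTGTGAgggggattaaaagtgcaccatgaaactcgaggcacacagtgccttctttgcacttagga
Cpn1 (chr19:43986521-43986770, minus strand): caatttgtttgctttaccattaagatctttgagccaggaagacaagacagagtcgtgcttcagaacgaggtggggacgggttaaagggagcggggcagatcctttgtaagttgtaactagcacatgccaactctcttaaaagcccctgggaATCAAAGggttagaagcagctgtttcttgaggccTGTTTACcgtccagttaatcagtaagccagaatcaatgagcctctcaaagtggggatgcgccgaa
Cck (chr9:121495695-121495944, minus strand): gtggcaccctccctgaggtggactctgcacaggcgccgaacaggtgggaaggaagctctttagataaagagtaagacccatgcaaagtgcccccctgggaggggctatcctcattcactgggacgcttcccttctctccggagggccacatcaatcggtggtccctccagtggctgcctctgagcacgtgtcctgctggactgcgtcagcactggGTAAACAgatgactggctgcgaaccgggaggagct

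Among the 28 genes lower in CNH, several encode secreted peptides. Of 4 tested genes of the peptide hormone list, 3 were called lower (Sct, Cck and Nptx2) and 0 higher, where 0.371% of all tested genes were called lower, with a median of -0.89 and summed levels of 9.34 to 9.54 in CNH and 10.42 to 10.58 in TBM. Nptx2 is a neuronal pentraxin and not a peptide hormone, and the list was drawn up with earlier results known, so its direction is not independent evidence. The fourth, Nmb, which encodes neuromedin B, was not called (0.22 ± 0.13, adjusted p = 0.519). Sct, which encodes the gut hormone secretin, was at 8.82, 9.02 and 9.23 in CNH and at 10.18, 10.19 and 10.18 in TBM, with a mean of 7.82 in PSM. The TBM values were almost equal and all above CNH, with a log2 fold change of -1.16 ± 0.18 (adjusted p = 0.0148). Cck, the peptide hormone cholecystokinin, was at 4.87, 5.20 and 5.73 in CNH and at 6.02, 6.14 and 6.68 in TBM. It did not overlap and differed by -1.01 ± 0.14 (adjusted p = 0.00954). Nptx2 was at 7.09, 6.97 and 5.95 in CNH and at 7.93, 8.05 and 6.30 in TBM, where the third array lay below CNH replicates 1 and 2, and differed by -0.76 ± 0.14 (adjusted p = 0.0339).

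Gdf10, a ligand of the TGF-beta family also called BMP3b, was furthest below TBM. It was at 5.42, 5.07 and 5.78 in CNH and at 6.81, 7.12 and 6.73 in TBM, with a mean of 5.58 in PSM. The log2 fold change was -1.46 ± 0.22 (adjusted p = 0.0132), and TBM was 1.31 above PSM while CNH differed from PSM by -0.15. It was the only called member of 5 tested TGF-beta family ligands, where 0.371% of all tested genes were called lower. Bmp4 differed by 0.14 ± 0.18 (adjusted p = 0.809).

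**Figure D4:**
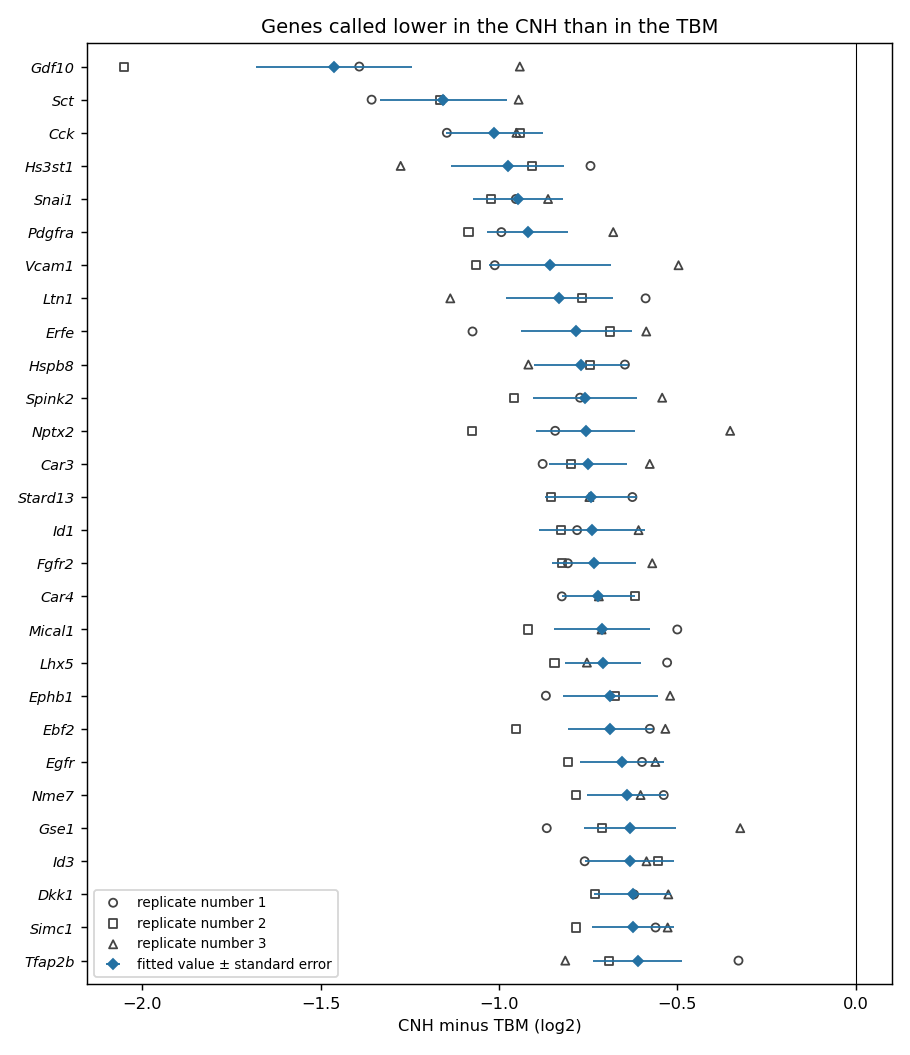
CNH minus TBM on the log2 scale (horizontal axis) for all 28 genes called lower in CNH by their brightest tested probe, drawn as for the higher genes. Circles, squares and triangles are replicates 1, 2 and 3, and blue diamonds with bars are the fitted value ± its standard error. Every difference lies below 0, from Gdf10 with a fitted -1.46 to Tfap2b with -0.61.

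Genes of the passage from epithelium to migrating mesoderm formed a list with 14 tested members. Of these, 2 were called lower (Snai1 and Pdgfra) and 0 higher, and the median log2 fold change was -0.20, where 0.371% of all tested genes were called lower and their median was -0.02. Snai1, the repressor that drives epithelial to mesenchymal transition, was at 7.11, 7.02 and 6.45 in CNH and at 8.06, 8.04 and 7.32 in TBM. No CNH array reached a TBM array, and the difference was -0.95 ± 0.13 (adjusted p = 0.00954). Pdgfra, a receptor of mesodermal cells for platelet-derived growth factor, was at 7.91, 7.79 and 8.75 in CNH and at 8.91, 8.88 and 9.43 in TBM, and at a mean of 9.09 in PSM. It differed by -0.92 ± 0.11 and had the smallest adjusted p of the lower genes (0.00635). Tbx6, the T-box factor of posterior mesoderm, was at 9.54 to 9.82 in CNH and at 9.89 to 10.17 in TBM, and was not called (-0.42 ± 0.11, adjusted p = 0.123). Vim, the mesenchymal filament vimentin, differed by -0.08 ± 0.18 (adjusted p = 0.895).

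Vcam1, a cell adhesion molecule, was at 7.22, 7.17 and 5.24 in CNH and at 8.23, 8.24 and 5.73 in TBM. The third array of both regions was far lower than the rest, and the difference within the numbers was -0.86 ± 0.17 (adjusted p = 0.0458). Hs3st1, which adds sulfate to heparan sulfate chains, was at 6.67, 6.64 and 4.80 in CNH, where 2 of 3 arrays detected it, and at 7.41, 7.55 and 6.08 in TBM. It overlapped in the same way and differed by -0.98 ± 0.16 (adjusted p = 0.0184). Ephb1, a receptor of ephrins, was -0.69 ± 0.13 from TBM (adjusted p = 0.0421). Of 20 tested axon guidance genes, Ephb1 was the only one called lower and Epha2 the only one called higher. Over all tested genes 0.371% were called lower and 1.02% higher.

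Among 16 tested FGF genes, Fgf8 was called higher and Fgfr2 lower, and the median was -0.19. The shares over all tested genes were 1.02% higher and 0.371% lower. Fgfr2, an FGF receptor, was at 6.58, 6.75 and 7.35 in CNH and at 7.38, 7.57 and 7.92 in TBM, and at a mean of 10.17 in PSM. All CNH arrays were below all TBM arrays, and the log2 fold change was -0.73 ± 0.12 (adjusted p = 0.0184). Dusp6, a feedback inhibitor that FGF signals induce, differed by 0.10 ± 0.16 (adjusted p = 0.854). Of 19 WNT genes 1 was called, Dkk1, a secreted WNT inhibitor, and the median was -0.12. Dkk1, which passed the filter through TBM alone, was at 5.10, 5.19 and 5.33 in TBM and at 4.46 to 4.81 in CNH, where 0 arrays detected it, so that it was at least 1.27-fold higher in TBM (adjusted p = 0.0253).

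Targets and antagonists of BMP signals had calls in both directions. Of 10 tested genes, Chrd was called higher, Id1 and Id3 were called lower, and the median was -0.05. Over all tested genes 1.02% were called higher and 0.371% lower. Of the 10, 3 were tested through CNH alone, and the median of the other 7 was -0.63. Id1, an inhibitor of DNA binding that BMP signals induce, was at 8.79, 8.73 and 8.28 in CNH and at 9.57, 9.56 and 8.89 in TBM. The regions did not overlap, and the difference was -0.74 ± 0.15 (adjusted p = 0.0472). Id3, of the same family, was at 5.53, 5.89 and 6.46 in CNH and at 6.29, 6.45 and 7.05 in TBM, a difference of -0.63 ± 0.12 (adjusted p = 0.0437). Msx1 was at 7.07, 7.32 and 5.29 in CNH and at 8.43, 8.39 and 5.87 in TBM, with the third arrays far below the others, and was not called, as given above.

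The rest of the 20 largest lower genes had varied roles. Hspb8, a small heat shock protein, was at 8.61, 8.55 and 8.52 in CNH and at 9.26, 9.29 and 9.44 in TBM, with the arrays of each region close together, and differed by -0.77 ± 0.13 (adjusted p = 0.0253). A second probe of Hspb8 was at -0.69 and not called (adjusted p = 0.0591). The other 11 tested heat shock and chaperone genes were not called. Car3 and Car4, which encode carbonic anhydrases, differed by -0.75 ± 0.11 (adjusted p = 0.0116) and -0.72 ± 0.10 (adjusted p = 0.0113). Car3 was at 7.77, 7.73 and 4.43 in CNH and at 8.65, 8.53 and 5.01 in TBM, with replicate 3 far below the others in both regions, and was detected on 2 of 3 CNH arrays. Ltn1, a ubiquitin ligase of ribosome quality control detected on 1 CNH array, and Erfe, the hormone erythroferrone, were at -0.83 ± 0.15 (adjusted p = 0.0331) and -0.78 ± 0.16 (adjusted p = 0.0472). Lhx5 was at -0.71 ± 0.11 (adjusted p = 0.0142). Spink2, an inhibitor of serine proteases, Stard13 and Mical1, an oxidase of actin, were at -0.76, -0.74 and -0.71 (adjusted p = 0.0397, 0.0257 and 0.0381). Tfap2b, a factor of ectoderm and neural crest, was the least changed of the list members, with -0.61 ± 0.12 (adjusted p = 0.0485). The 5 lower genes outside the rule for naming, added after their values were seen, were Ebf2, Egfr, Gse1, Nme7 and Simc1, with -0.69 to -0.62. Of Nme7's other tested probes 3 had the opposite sign.

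Each call of a lower gene was lost in some fit without an array. Without TBM replicate 1 or TBM replicate 2, 0 of the 28 kept the call, with adjusted p up to 0.329 and 0.30, while 945 and 909 probes still had an unadjusted p under 0.05. Without CNH replicate 1, 4 kept it (Hs3st1, Ltn1, Pdgfra and Snai1), and without CNH replicate 2 only Cck did. Without CNH replicate 3, 14 did, and without TBM replicate 3, 7 did (Car3, Gdf10, Nptx2, Pdgfra, Sct, Snai1 and Vcam1). Without PSM replicate 1 and without PSM replicate 2, 20 kept it, and without PSM replicate 3 all 28. With replicates 1 and 2 averaged, 3 kept it (Gdf10, Cck and Snai1). With the authors' normalized values only Sct kept its call. Pdgfra, Hspb8 and Snai1 missed only the 1.5-fold limit there, with log2 fold changes of -0.53, -0.50 and -0.35 (adjusted p = 0.00778, 0.0222 and 0.0404). Gdf10 and Cck, at -0.33 and -0.18, missed both limits (adjusted p = 0.0657 and 0.0929). The genes with fewest losses among the 9 fits were Pdgfra and Snai1, with 3 each.

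Other gene groups of the tail had few or no called members. Since 1.02% of all tested genes were called higher and 0.371% lower, 0 or 1 call in a list of this size is near the background and is given as a description. Of 28 tested Hox genes 0 were called, with log2 fold changes from -0.44 to 0.25 and a median of -0.03. Of 13 genes of the PSM and segmentation 0 were called, with a median of -0.11. Among these Nkd2, an inhibitor of WNT signals, was at -0.53 ± 0.14 (adjusted p = 0.133), and Hey1, a target of Notch, at 0.28 ± 0.11 (adjusted p = 0.304). Of 9 retinoic acid genes 0 were called, and Cyp26a1, which degrades retinoic acid, differed by -0.18 ± 0.29 (adjusted p = 0.849). Somite genes (5 tested), lateral and ventral mesoderm (3), glycolysis (14) and cilia (10) also had 0 calls, with medians of -0.04, 0.14, 0.00 and -0.04. Of 27 cell cycle genes only Ccnd2 was called and the median was -0.04, and of 11 cell cycle inhibitors only Cdkn1a was. In the IGF system (13 tested) only Igfbp5 was called, among collagens and matrix (21) only Cthrc1, and among immediate early and stress genes (14) only Cdkn1a, with medians of 0.05, -0.01 and 0.01. Of 19 matrix proteases and their inhibitors 3 were called higher (Cpn1, Tmprss2 and Timp3), with a median of 0.06. That share was above the 1.02% of all tested genes. Cpn1 and Tmprss2 stand among the genes that the study chose on these arrays, so the share is not independent evidence. The 4 tested alpha-defensin and Paneth genes had 0 calls and a median of 0.08. Cdkn1c, a cell cycle inhibitor related to Cdkn1a, was at 12.28, 12.43 and 13.10 in CNH and at 11.87, 11.90 and 12.61 in TBM and was not called (0.48 ± 0.13, adjusted p = 0.151).

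**Figure D5:**
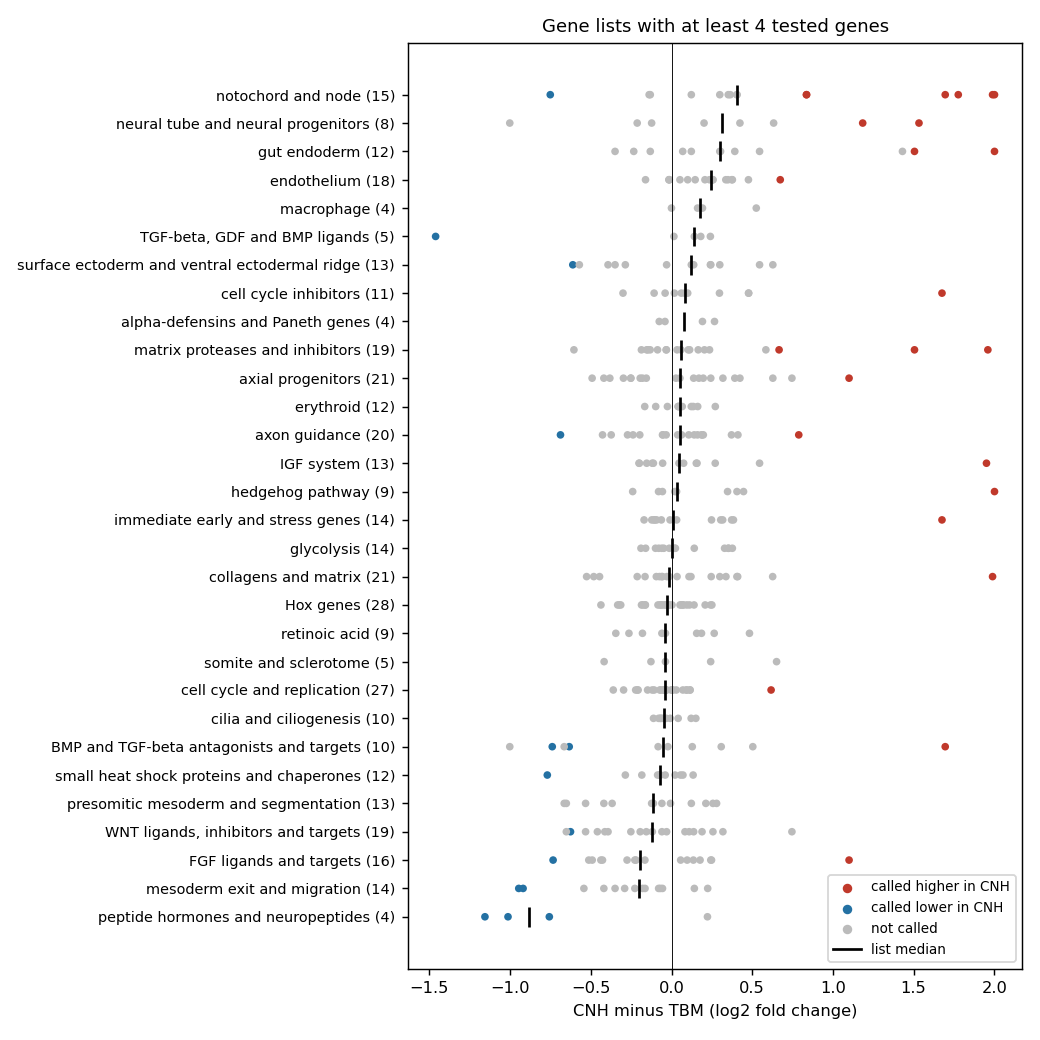
Log2 fold change of CNH over TBM (horizontal axis) for the tested members of each gene list with at least 4 of them (number in parentheses), ordered by the median, which a black bar marks. Red points were called higher in CNH, blue points lower, and grey points were not called; the notochord list has the highest median (0.41) and the peptide hormone list the lowest (-0.89).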

How the data were processed

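The authors deposited raw signal intensities per probe and array, neither normalized nor background subtracted, each with a detection p-value. A further deposited table holds the same signals after the authors' VST transformation and RSN normalization (lumi), on a log2-like scale, and served as an alternative. In R 4.3.3 with limma 3.58.1, neqc (offset 16) corrected the intensities for background, with the negative controls inferred from detection, then applied quantile normalization and log2. A log2 level compares arrays for a probe, not genes with each other.

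Of the 11963 probes tested (detection p under 0.01 on every array of CNH or of TBM), 1525 have no gene symbol. The limma fit over 9 arrays had region and, as a block, replicate number as terms (4 residual degrees of freedom). The number comes from the sample titles. Centred by region, CNH and TBM arrays of the same number correlated with r = 0.894 to 0.964, numbers 1 and 2 with 0.894 to 0.898, and number 3 with the others with -0.933 to -0.927, so the block mainly takes up replicate 3. What sets replicate 3 apart is not given in the sources used here. No arrays held identical values.

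The genes named were the 20 largest log2 fold changes each way among called genes with the same sign in all 3 numbers, the called members of 31 gene lists (881 entries) and, where fewer than 4 were called, their brightest members. The comparison, the lists and the genes were chosen with earlier results of these data known. For a gene detected on 0 arrays of the dimmer region, a bound took the higher of its own value and the lowest detected value on each array. Summed levels are log2 of the sum of a list's values. The number of arrays limits the precision. The steps were tested on simulated data.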

Additional observations from a re-analysis of the deposited data

How the results depend on the processing

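The 139 calls had the same sign in every alternative that could fit them (99 of 99 where probes had to be detected on all 6 arrays). The counts changed with the processing, and the cause was not tested except where fewer arrays, more tests or the fold limit set it. Leaving out the replicate block gave 0 calls higher and 0 lower, where the fit with it gave 104 and 35. The deposited VST and RSN values gave 13 and 2, intensities without background correction 51 and 10, an offset of 50 gave 66 and 19, and testing all 45281 probes gave 18 and 2. At any fold, 153 probes had an adjusted p under 0.05 in the main fit and 80 with the deposited values. Without background correction 209 had one, and with the offset of 50 it was 198. The smaller counts of calls in these last settings therefore came with the 1.5-fold limit. Averaging replicates 1 and 2 as if they were the technical pair left 35 and 3, whereas averaging 1 and 3 gave 92 and 35, and 2 and 3 gave 115 and 33. Leaving out a single array gave 19 to 126 higher and 0 to 49 lower, and leaving out replicate 3 of all regions gave 117 and 71. The other detection rules gave 72 to 97 higher and 27 to 28 lower, and the 6 arrays alone 112 and 42. Of 50 named called genes followed, 0 kept the call in all settings, since each lost it without the block; Cdkn1a, Cpn1, Hap1, Igfbp5, Sox9 and Tmprss2 lost it in that setting only. Signal near the detection limit bounds 6 of the higher genes and 1 of the lower.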
